A study of Ovis aries with 7 samples.

Results

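The genes described are 8 of the cholesterol pathway, chosen by name: HMGCS1, IDI1, FDPS, FDFT1, SQLE, LSS and MSMO1, which encode enzymes of synthesis, and INSIG1, which encodes a sterol sensor. All 8 had a row among the 31304 rows of the deposited table, of which 16526 carry a gene symbol. Messenger RNA of 8-cell sheep (Ovis aries) embryos was measured by Smart-seq2. The embryos were made either by somatic cell nuclear transfer (SCNT, 4 samples) or by in vitro fertilization (IVF, 3 samples). Neither breed, donor cell nor number of embryos per library is given in the sources used here, and nothing ties a library to a separate trial, so differences between libraries can include technical variation. Values below belong to the 3 IVF libraries. The table has 4 further columns whose name matches no sample label, so SCNT was not analysed here and no difference between SCNT and IVF is given.

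Cells make cholesterol from acetyl-CoA. A first set of enzymes builds mevalonate and turns it into isoprenoid units, and a second set joins these into squalene, closes the rings of lanosterol and trims it to cholesterol. When membranes of the endoplasmic reticulum are rich in sterol, the INSIG proteins hold back SCAP and the SREBP transcription factors, which otherwise raise transcription of nearly all of these enzymes. In the early embryo, cholesterol goes into the membranes that each cleavage adds.

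Levels are in TPM, a unit of transcript abundance that corrects for transcript length and scales each library to a fixed total, so that genes can be compared within a library. Depth cannot be recovered from TPM, so no counting interval is given. All 3 libraries belong to 1 group. A sign-flip test of 3 differences, exact and two-sided, has 0.25 as its smallest p, so values stand with their spread and without a test. Fewer cells and less RNA per cell cannot be told apart in such libraries, nor can stored maternal RNA and new transcription.

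The 8 RNAs covered more than 2 orders of magnitude, with a steep top and a low bottom. MSMO1, the C4-methylsterol oxidase that starts the removal of the methyl groups at carbon 4, averaged 442 ± 35.1 TPM (SD, n = 3, as throughout) and ranked 277 among the 16526 symbols. IDI1, which interconverts the isoprenoid units, averaged 50.0 ± 2.28 TPM and ranked 1661. LSS, the cyclase that forms lanosterol, stood lowest at 0.835 ± 0.422 TPM and ranked 9546. MSMO1 alone held 83.1, 81.7 and 84.7% of the summed TPM of the 8 genes in replicates 1, 2 and 3, and IDI1 a further 9.42 ± 0.282%. The sum itself was 531 ± 37.9 TPM.

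**Figure D1:**
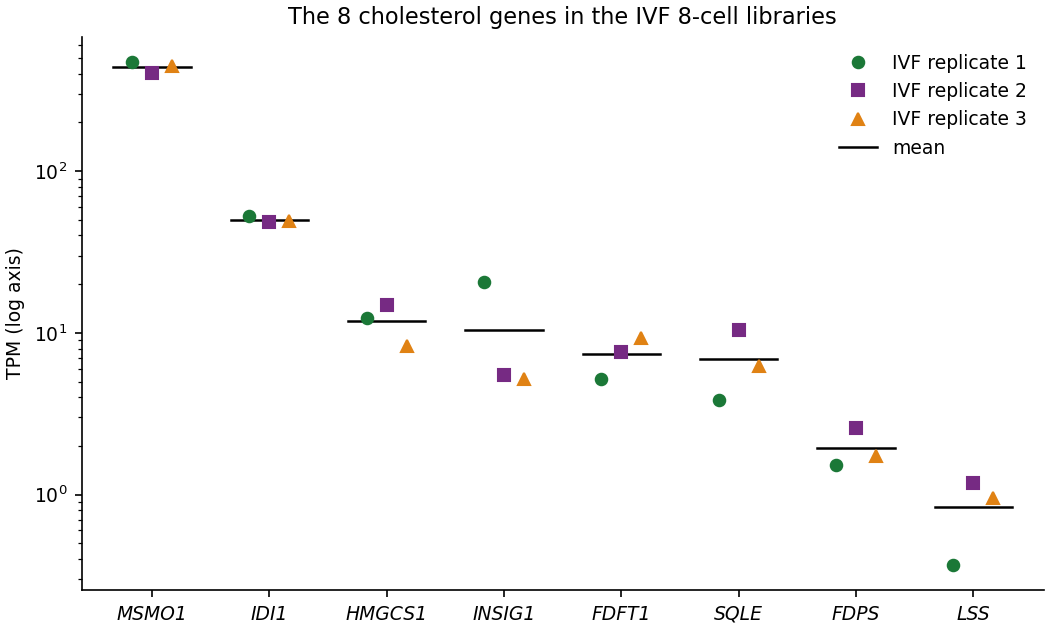
TPM of the 8 genes (log axis) in the 3 IVF libraries, with a point for each library and a black line at the mean, genes ordered by mean. MSMO1 and IDI1 stand above the rest in every library, INSIG1 has replicate 1 at 20.7 TPM above both others, and LSS is lowest in every library.

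In the mevalonate arm, HMGCS1, which condenses acetyl-CoA with acetoacetyl-CoA, was at 12.3, 14.8 and 8.33 TPM in replicates 1, 2 and 3. Its level was thus within 1.77-fold across libraries, lowest in replicate 3. IDI1 was at 52.6, 48.2 and 49.2 TPM, within 1.09-fold across libraries, the smallest fold of the 8 genes in the deposited values. FDPS, which assembles farnesyl diphosphate, the last intermediate shared with the other isoprenoid products, was at 1.51, 2.58 and 1.72 TPM. It reached 1 TPM in each library, yet its mean of 1.94 ± 0.566 TPM lay at percentile 52.6 of all symbols.

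In the sterol arm, FDFT1, the squalene synthase that commits farnesyl diphosphate to sterols, was at 5.21, 7.57 and 9.30 TPM in replicates 1, 2 and 3. SQLE, the squalene monooxygenase and a control point of the pathway, was at 3.85, 10.5 and 6.26 TPM. Both were lowest in replicate 1, but FDFT1 was highest in replicate 3 and SQLE in replicate 2. LSS was at 0.367, 1.19 and 0.953 TPM, so it passed 1 TPM in replicate 2 alone and lay just under it in replicate 3. The other 7 genes passed 1 TPM in every library, 87.5% of the 8, against 49.0% of all symbols. MSMO1 was at 474, 404 and 448 TPM, every value above any value of the other 7 genes.

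INSIG1, the endoplasmic reticulum anchor that retains SCAP when sterol is plentiful and whose own gene is an SREBP target, differed most between libraries. It was at 20.7, 5.51 and 5.18 TPM in replicates 1, 2 and 3, so replicate 1 held 4.0 times the value of replicate 3. Its mean of 10.5 ± 8.89 TPM rests on replicate 1 and was 5.35 TPM without it. The enzyme RNAs did not share that pattern. FDFT1, SQLE, FDPS and LSS were lowest in replicate 1, while MSMO1, HMGCS1 and IDI1 were slightly higher there than the mean of replicates 2 and 3. The latter differences were 0.15, 0.14 and 0.11 on the log2(TPM + 1) scale. The share of all symbols lowest in replicate 1 was not computed, and a link of these genes to INSIG1 was not tested. INSIG2, its close paralog, was at 6.29, 8.58 and 5.0 TPM.

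Ordered by mean, the genes ran MSMO1, IDI1, HMGCS1, INSIG1, FDFT1, SQLE, FDPS and LSS. Of the 7 steps between neighbours, 4 had the same sign in all 3 libraries. On the log2(TPM + 1) scale, MSMO1 exceeded IDI1 by 3.12 ± 0.06 and IDI1 exceeded HMGCS1 by 2.03 ± 0.39. Further down, SQLE exceeded FDPS by 1.35 ± 0.37 and FDPS exceeded LSS by 0.69 ± 0.20. The steps between the 4 genes in the middle could not be ordered: the differences of HMGCS1 over INSIG1 (0.39 ± 1.01), INSIG1 over FDFT1 (0.22 ± 1.38) and FDFT1 over SQLE (0.15 ± 0.50) were each smaller than their SD and changed sign between libraries. Of the wider pairs among these 4, HMGCS1 exceeded SQLE in all 3 libraries, by 0.76 ± 0.61. Over all 28 pairs of the 8 genes, 23 kept their sign in the 3 libraries. Without replicate 1, INSIG1 stood below FDFT1, with a difference of -0.57.

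Between libraries, INSIG1 was among the least steady of all genes, while MSMO1 and IDI1 were steady in the deposited values. The measure is the highest over the lowest library on the TPM + 1 scale, taken over genes averaging 5 TPM or more, which leaves out FDPS and LSS. Of the 6 genes left, 2 passed 2-fold, where 28.8% of 5765 symbols did. These were INSIG1 at 3.52-fold, which exceeded 97.1% of symbols, and SQLE at 2.36-fold, which exceeded 83.3%. IDI1 at 1.09-fold and MSMO1 at 1.17-fold exceeded 2.2% and 6.80% of symbols. HMGCS1 at 1.69-fold and FDFT1 at 1.66-fold lay close to the median symbol at 1.66-fold. The spread of several of the 6 genes depended on the scaling. With libraries rescaled by the median of ratios, IDI1 was at 1.35-fold, which exceeded 21.8% of symbols, MSMO1 at 1.46-fold, which exceeded 32.3%, and HMGCS1 at 1.37-fold, which exceeded 24.0%. FDFT1 was at 1.73-fold. Under that scaling INSIG1 was at 4.04-fold, exceeding 98.0% of symbols, and of the 6 genes it alone passed 2-fold, with SQLE at 1.95-fold.

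**Figure D2:**
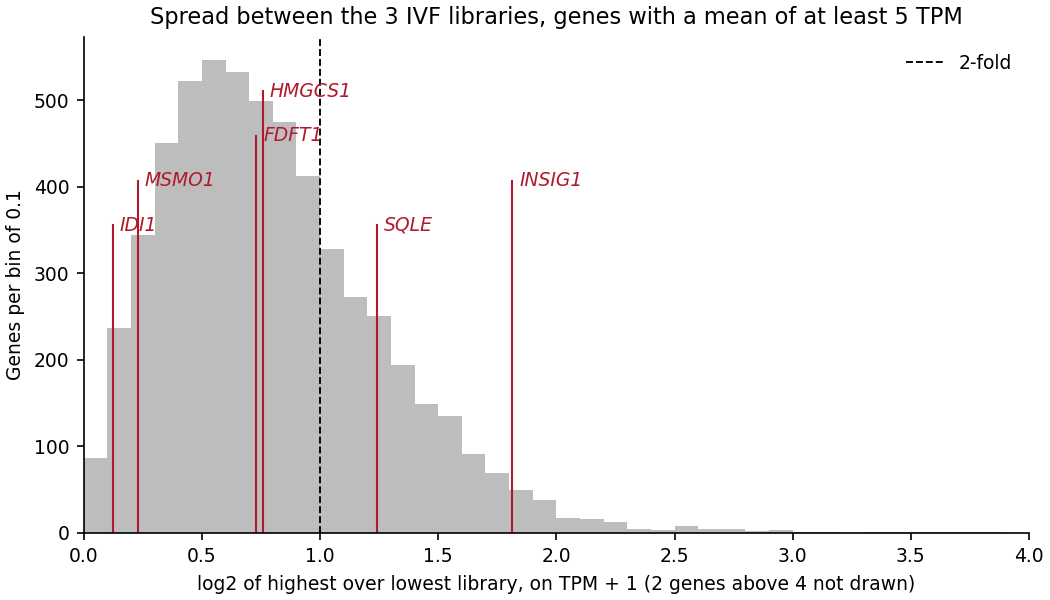
Histogram of the log2 ratio of the highest to the lowest IVF library on TPM + 1 for 5765 gene symbols with a mean of at least 5 TPM (grey, genes per bin of 0.1), with red lines at 6 of the 8 genes and a dashed line at 2-fold. IDI1 and MSMO1 lie at the left edge, HMGCS1 and FDFT1 near the middle, and SQLE and INSIG1 to the right of 2-fold.

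The 8 genes did not peak in a single library. HMGCS1, SQLE, LSS and FDPS were highest in replicate 2, which makes 4 of 8, where 49.2% of 14938 symbols above 0 were highest. MSMO1, IDI1 and INSIG1 were highest in replicate 1 (3 of 8, against 33% of symbols), and FDFT1 in replicate 3 (1 of 8, against 17.8%). Replicate 2 also held the largest share of mitochondrially encoded RNA, 5.53% of TPM against 2.55% in replicate 1 and 1.94% in replicate 3. With mitochondrially encoded and ribosomal protein genes removed and the rest rescaled, 4 of the 8 were still highest in replicate 2, against 51.1% of symbols. Scaling by the median of ratios divided replicates 1, 2 and 3 by 0.953, 1.19 and 0.909. After it 2 of the 8, SQLE and FDPS, were highest in replicate 2, and the share of all symbols highest there was also lower, at 35.7%.

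Most embryo and oocyte markers were abundant, and the lists of fibroblast and of cumulus and granulosa markers summed to less. Of 12 embryo and oocyte markers, 11 reached 10 TPM in every library, 91.7% against 21.7% of all symbols, and the list summed to 1938 to 3306 TPM. ARGFX, KPNA7 and BTG4 led it at means of 614 ± 355, 415 ± 116 and 368 ± 121 TPM, and NLRP5, at 1.36, 0.221 and 0.406 TPM in replicates 1, 2 and 3, was the marker that did not reach 10 TPM.

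Fibroblast markers summed to 16.9 to 28.3 TPM over 16 genes. Of these, 4 reached 1 TPM in every library, 25.0% against 49.0% of all symbols. The highest of the 16 were VIM, S100A4 and FN1 at 7.90 ± 1.25, 4.11 ± 1.59 and 3.03 ± 0.948 TPM, and PDGFRA followed at 2.53 ± 1.43 TPM. COL1A1 averaged 0.564 ± 0.293 TPM, and POSTN was at 0 in each library. Cumulus and granulosa markers summed to 50.1 to 85.0 TPM over 13 genes. Of these, 4 reached 1 TPM in every library, 30.8% against 49.0% of all symbols. GATM led the 13 at 46.2 ± 19.3 TPM, followed by HAS2 with 9.86, 13.1 and 7.09 TPM in replicates 1, 2 and 3. HSD3B1 and STAR averaged 4.32 ± 3.97 and 2.56 ± 0.178 TPM, while FOXL2 and PTX3 were at 0, PTX3 lying wholly inside VEPH1 in the RefSeq gene table. Their part in the levels of the 8 genes was not tested.

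Set among the other enzymes of the pathway, the enzymes of the 8 genes, which leave out INSIG1, fell into an uneven chain of high and low RNAs. Of 20 enzymes listed, 18 had values here, and 12 of these reached 1 TPM in every library. That is 66.7%, against 49.0% of all symbols. Their median was 4.54 ± 1.14 TPM, against 1.51 ± 0.212 TPM for all symbols. MSMO1, NSDHL and ACAT2 together held 87.1, 87.1 and 88.0% of the summed TPM of the 18 enzymes in replicates 1, 2 and 3. The sum was 844 ± 26.1 TPM. The list was chosen with earlier results of these data known.

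In the mevalonate arm, 6 of 7 enzymes were at 1 TPM or more throughout, against 49.0% of all symbols. ACAT2, the cytosolic thiolase that makes acetoacetyl-CoA for HMGCS1, was the most abundant of them at 107, 205 and 168 TPM in replicates 1, 2 and 3. It was 3.64 ± 0.58 above HMGCS1 on the log2(TPM + 1) scale. In the deposited values both were highest in replicate 2, where 49.2% of symbols above 0 were highest. Under the median of ratios HMGCS1 was highest in replicate 1. The 3 steps before IDI1 were lower than IDI1: the kinases MVK and PMVK averaged 4.68 ± 0.636 and 0.649 ± 0.325 TPM, and the decarboxylase MVD 1.98 ± 0.557 TPM. IDI1 thus stood above the 3 enzymes just before it and above FDPS just after it, but below ACAT2.

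In the squalene and sterol arm, 6 of 11 enzymes with values were at 1 TPM or more throughout, and 4 were under 1 TPM in every library or at 0. The first count is 54.5%, close to the 49.0% of all symbols. Beside the second, 6416 of all 16526 symbols were under 1 TPM in every library. MSMO1 and NSDHL, which act one after the other on the methyl groups at carbon 4, were the highest. NSDHL was at 128, 141 and 136 TPM, and MSMO1 exceeded it by 1.70 ± 0.18 on the log2(TPM + 1) scale. The third enzyme of the same reaction sequence, HSD17B7, averaged 0.595 ± 0.222 TPM, and NSDHL exceeded it by 6.42 ± 0.17. MSMO1 exceeded LSS, which acts upstream of it, by 7.94 ± 0.46. The pairs in these sentences were picked with the values in view.

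Both enzymes that can reduce the C14 double bond were measured. LBR, a nuclear envelope protein with that activity, averaged 11.7 ± 1.97 TPM, against 0.491 ± 0.444 TPM for TM7SF2. The late enzymes SC5D and DHCR7, which set and remove ring double bonds, averaged 6.64 ± 3.24 and 0.809 ± 0.154 TPM. EBP, the sterol isomerase, was listed at 0 in all 3 libraries. In the RefSeq gene table it lies wholly inside PORCN, which was at 6.08, 6.48 and 3.52 TPM.

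**Figure D3:**
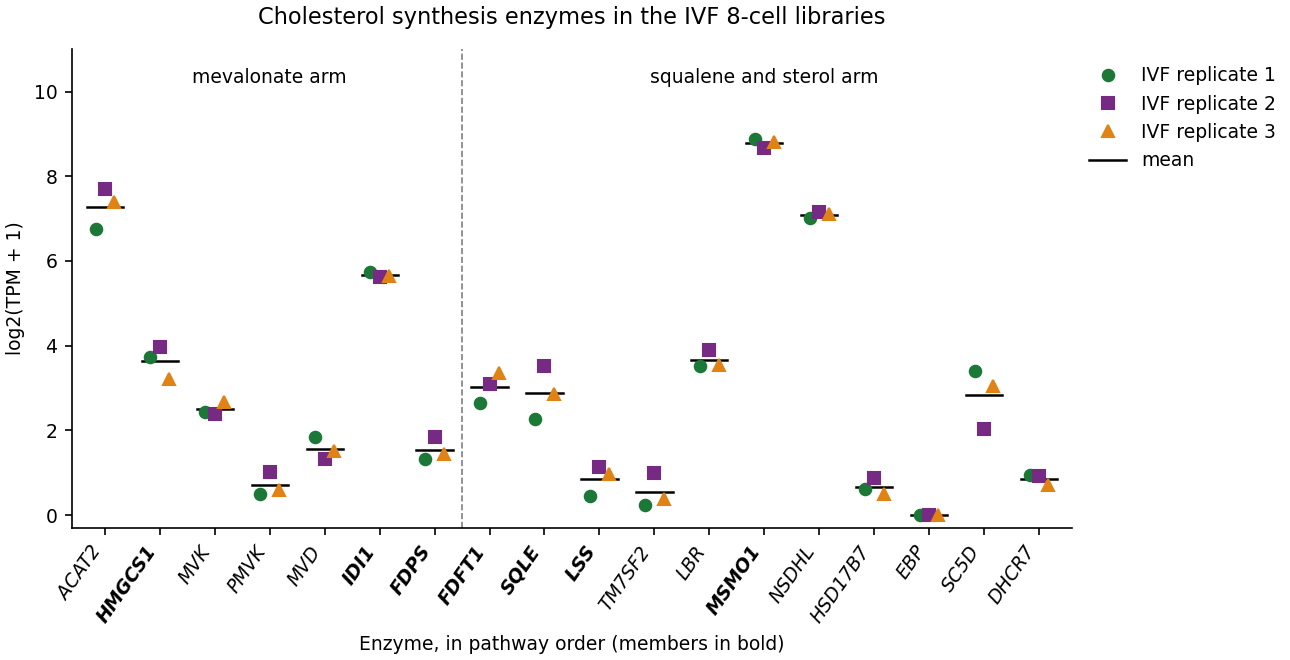
Log2(TPM + 1) of the 18 cholesterol synthesis enzymes with values in the 3 IVF libraries, in pathway order from ACAT2 to DHCR7, with a point for each library, a black line at the mean and the genes of the 8 in bold. MSMO1, ACAT2, NSDHL and IDI1 have the highest means of the 18, and EBP is at 0.

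Of the 8 genes, 3 share part of their span with another gene in the RefSeq gene table, and no source used here says whether reads were assigned by strand. IDI1 overlaps WDR37, which averaged 8.01 ± 0.972 TPM, under the level of IDI1 in every library. FDFT1 overlaps CTSB, a lysosomal protease gene at 8.23, 3.62 and 4.0 TPM, highest in replicate 1, where FDFT1 was lowest. FDPS and FDFT1 each overlap a gene for a long noncoding RNA that stayed under 0.3 TPM. HMGCS1, MSMO1, SQLE, LSS and INSIG1 overlap no other gene there. Of the other abundant enzymes, ACAT2 overlaps TCP1, at 234, 137 and 127 TPM, and NSDHL overlaps CETN2, at 134, 281 and 158 TPM. How overlapping genes were counted was not tested.

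RNAs of the sterol-sensing machinery, to which INSIG1 belongs, were mostly present. Of 11 genes, 8 reached 1 TPM in every library, 72.7% against 49.0% of all symbols. The list median was 4.25 ± 0.425 TPM, against 1.51 ± 0.212 TPM for all symbols. SREBF2, the SREBP gene known mainly for the control of cholesterol synthesis, was at 3.90, 1.54 and 2.90 TPM in replicates 1, 2 and 3. SREBF1, known mainly for fatty acid synthesis, was at 0.398, 0.354 and 0.363 TPM, and SREBF2 exceeded it by 1.41 ± 0.46 on the log2(TPM + 1) scale. Of their partners, SCAP, which escorts SREBP to the Golgi, averaged 3.24 ± 0.777 TPM.

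The Golgi proteases that release SREBP stood apart, with MBTPS1 at 8.02 ± 1.82 TPM and MBTPS2 at 0.198 ± 0.0798 TPM. NR1H2, one of the LXR oxysterol receptors, was the most abundant of the list at 48.4 ± 8.72 TPM, against 1.13 ± 0.516 TPM for its paralog NR1H3. MYLIP, a ubiquitin ligase known as an LXR target, averaged 14.4 ± 3.55 TPM. RNF139, a ubiquitin ligase that binds the INSIG proteins, averaged 3.20 ± 1.33 TPM.

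Among genes for taking up and handling cholesterol, NPC2 and SOAT1, which serve its transport and storage inside the cell, were high. Of 13 uptake and transport genes, 7 reached 1 TPM in every library, 53.8% against 49.0% of all symbols. The megalin gene LRP2 was at 6.0, 16.1 and 5.99 TPM in replicates 1, 2 and 3. GRAMD1A, which carries cholesterol from the plasma membrane to the endoplasmic reticulum, averaged 6.80 ± 0.877 TPM. SCARB1, the HDL receptor, averaged 1.45 ± 1.03 TPM, and VLDLR, a receptor for triglyceride-rich lipoproteins, 0.249 ± 0.218 TPM.

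Inside the cell, NPC2, which lifts cholesterol out of lysosomal lipoproteins and hands it to NPC1, was the most abundant of the uptake and transport genes at 206, 361 and 205 TPM. NPC1 itself averaged 4.69 ± 1.0 TPM, and NPC2 exceeded it by 5.47 ± 0.30 on the log2(TPM + 1) scale. SOAT1, which esterifies cholesterol for storage in lipid droplets, was at 572, 472 and 630 TPM. It was above MSMO1 in all 3 libraries, by 0.33 ± 0.14 on the log2(TPM + 1) scale. The apolipoprotein gene APOE and CH25H, a cholesterol hydroxylase gene, averaged 4.06 ± 1.59 and 2.26 ± 0.642 TPM. NCEH1, which hydrolyses cholesterol esters, averaged 1.25 ± 0.904 TPM, and the efflux transporter ABCA1 1.05 ± 0.395 TPM. Of the 6 storage, efflux and oxidation genes with values, 3 were at 1 TPM or more throughout, 50.0% against 49.0% of all symbols.

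**Figure D4:**
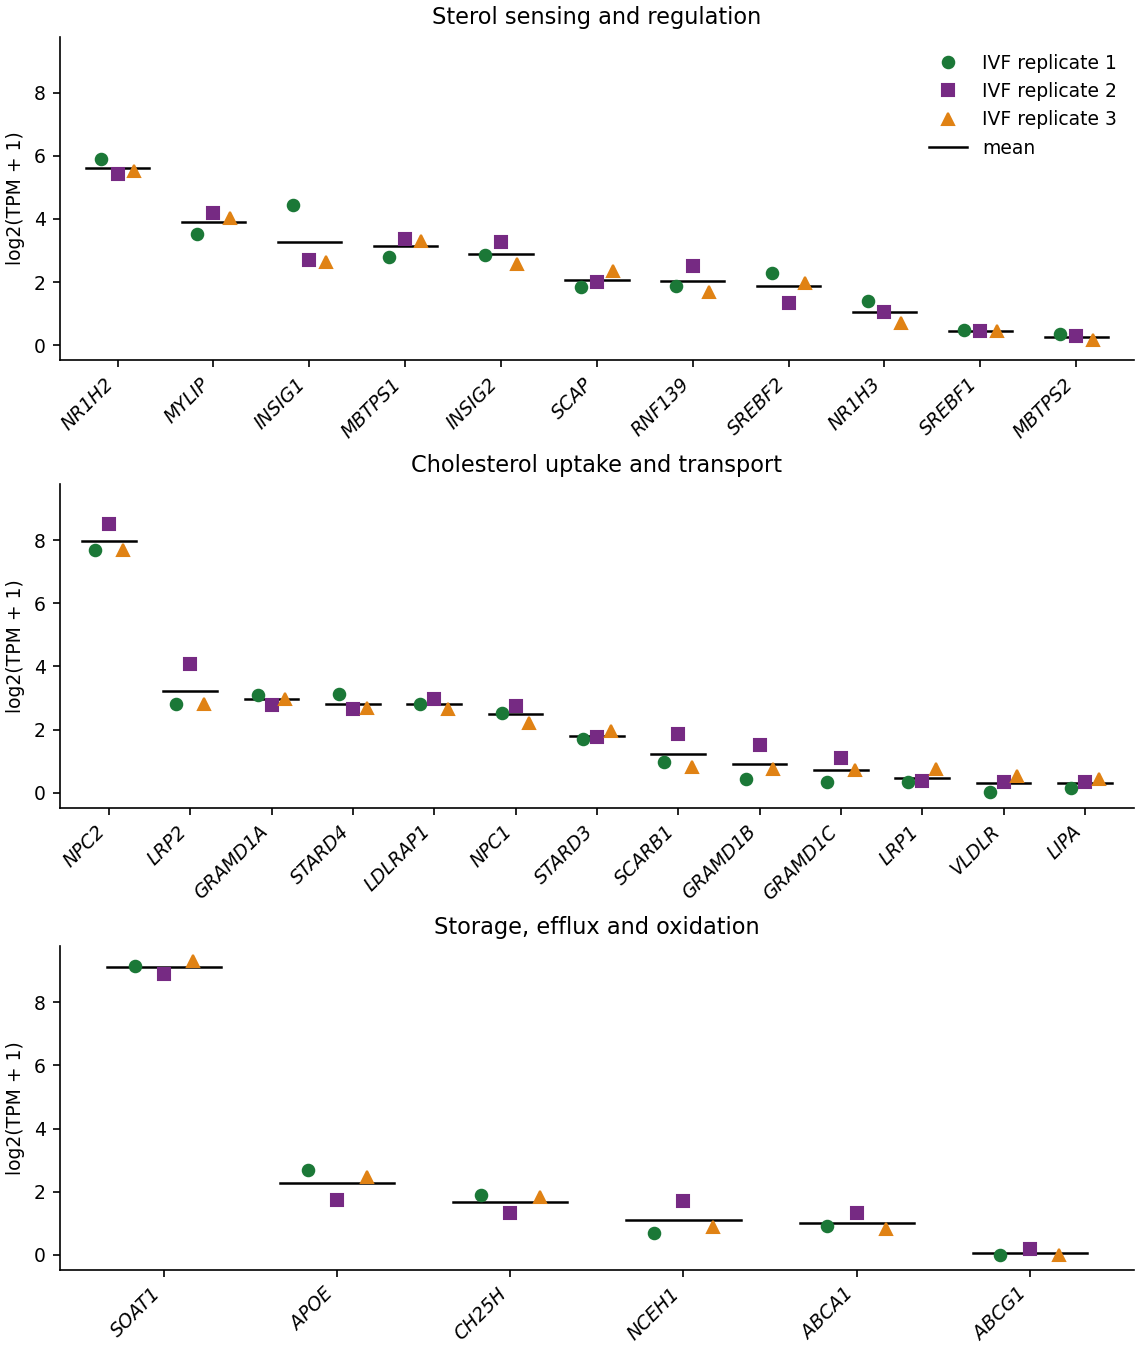
Log2(TPM + 1) of genes for sterol sensing and regulation (top), cholesterol uptake and transport (middle) and storage, efflux and oxidation (bottom) in the 3 IVF libraries, with a point for each library and a black line at the mean, genes ordered by mean. NR1H2, NPC2 and SOAT1 lead their panels, and INSIG1 shows replicate 1 above both others.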

How the data were processed

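PolyA RNA was amplified for 20 PCR cycles and read as paired 150-nucleotide ends, per the labels' protocols. The authors deposited TPM per gene, and each column used sums to 1000000. Per the submitters' processing notes, the authors used fastp 0.23.4 and HISAT2 2.2.1. The sources used here do not name the sheep build, annotation or counting tool. Columns were assigned to samples by name, and 4 columns of per-sample values were not used. The planned limma comparison of SCNT with IVF and the planned promoter motif search were not made, as no SCNT columns and no promoter sequence were used here.

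Of the rows, 28862 matched the RefSeq gene table of ARS-UI_Ramb_v3.0, used for overlaps between genes and mitochondrial rows. Its build may differ, so no coordinates are given. Detection means at least 1 TPM, and log values use a pseudocount of 1. The 8 genes and the lists were chosen with earlier results of these data known. By rule the text names the 8 genes and the 3 highest of each list. Further list members and overlapping genes were added for their roles, with values in view. Some genes of the planned lists are not reported here. The steps for spread between libraries were tested on simulated data with little noise and planted changes far past 2-fold. Such data check the code only and do not resemble the spread of the real libraries. Python 3.11.15, numpy 2.4.6, pandas 2.3.3 and matplotlib 3.10.9 were used.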

Additional observations from a re-analysis of the deposited data

How the results depend on the processing

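No paired analysis was possible because only IVF libraries are described. The planned SCNT alternatives were not run. Depth is unknown, so low values such as those of LSS cannot be told from sampling loss. The summed TPM of the 8 genes, 531, was 641 without mitochondrially encoded and ribosomal protein genes, because the total then shrinks. The median percentile of the 8 genes, 72.6, was 72.1 to 73.3 with each library left out, 72.8 under both other scalings and 69.6 among symbols above 0, a higher background. Genes of the 8 past 2-fold between libraries, 2, were 0 without replicate 1, 1 without replicate 2 and 2 without replicate 3. Each of these counts compares fewer libraries, and the ratio of a gene over fewer libraries cannot exceed its ratio over all 3. Other causes of the differences were not tested. There was 1 under the median of ratios, where 28.7% of symbols passed, against 28.8% as reported (the cause was not tested). With a pseudocount of 5 there was also 1, where 16.4% of symbols passed. By arithmetic, a larger pseudocount lowers every ratio above 1. The share of symbols past 2-fold was 10.7, 7.76 and 23.8% with replicates 1, 2 and 3 left out. Counts of detected list genes follow the threshold. At 5 TPM they were 3 in the mevalonate arm, 4 in the sterol arm, 7 over both, 4 for sensing and 5 for uptake. Storage had 1, the other isoprenoid branches 6 and fatty acid synthesis 2. At 0.1 TPM they were 7 in the mevalonate arm, 10 in the sterol arm, 17 over both, 11 for sensing and 12 for uptake. Storage then had 5, the other isoprenoid branches 8 and fatty acid synthesis 9. Shares of all symbols at 5 and 0.1 TPM were not computed, so these counts stand without a background. The log2 difference of FDPS over LSS was 1.21 with a pseudocount of 0.1 and 0.25 with 5. Among 161 values under alternatives that kept all libraries, 126 stayed within 1 SD of the reported value (counts and shares within 1.5 times) and 35 did not. With a library left out, 125 of 132 values stayed and 7 did not. A mean of 3 libraries cannot move by 1 SD when 1 is left out. For means, that outcome was therefore fixed in advance and does not show that they are stable.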

Other observations

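Farnesyl diphosphate, the product of FDPS, also feeds other routes, and several RNAs of those routes exceeded FDPS. Of 9 genes for these branches, 8 reached 1 TPM in every library, 88.9% against 49.0% of all symbols, with a list median of 13.0 ± 3.69 TPM. GGPS1, which extends farnesyl to geranylgeranyl diphosphate, was at 39.0, 48.3 and 69.4 TPM in replicates 1, 2 and 3. It exceeded FDPS by 4.16 ± 0.48 on the log2(TPM + 1) scale. FNTA, the alpha subunit shared by 2 protein prenyltransferases, was at 165, 70.3 and 79.9 TPM. Its partners were lower, FNTB of the farnesyl enzyme at 1.83 ± 0.473 TPM and PGGT1B of the geranylgeranyl enzyme at 23.6 ± 7.75 TPM. PDSS1, a subunit of the enzyme that makes the side chain of coenzyme Q, was at 27.9, 4.09 and 10.8 TPM, highest like INSIG1 in replicate 1, while its partner PDSS2 averaged 0.151 ± 0.0749 TPM.

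Fatty acid synthesis genes, the other arm known to respond to SREBP, had a median of 5.04 ± 1.78 TPM, with 8 of 10 at 1 TPM or more throughout, 80.0% against 49.0% of all symbols. ME1, which supplies NADPH, led at 44.0, 20.5 and 17.5 TPM. The elongase ELOVL6 averaged 9.43 ± 4.09 TPM and ACLY, which makes cytosolic acetyl-CoA, 6.62 ± 2.30 TPM. FASN, the fatty acid synthase, stayed under 1 TPM at 0.916, 0.274 and 0.148 TPM, and FADS2 was at 0, 0.400 and 0.0152 TPM.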
